A study of Mus musculus with 76 samples.

Results

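The heat shock chaperones described here are 10 genes chosen by symbol: Hspa1a, Hspa1b, Hspa8, Hsph1, Dnajb1, Hsp90aa1, Hsp90ab1, Hspb1, Hspd1 and Hspe1. All 10 were found among the 54232 genes of the raw count table, and all 10 passed the filter on low counts in every tissue. RNA had been sequenced from 3 tissues of male Fox Chase SCID mice (CB17/Icr-Prkdcscid), 12 weeks of age, in a study of Na/K-ATPase signalling in fat and heart disease of kidney failure. Every group carried the Prkdc scid mutation, which leaves mice without working T and B lymphocytes. The tissues were heart, kidney and visceral adipose tissue (VFAT), and each had 5 arms. Mice of 1 arm had a sham operation (Sham), and those of the others had part of the kidney mass removed (partial nephrectomy, PNx). PNx was given alone, with transplanted control cells, with cells labelled Lenti-adipo-NaKtide or with cells labelled Lenti-adipo-scrambled. NaKtide is a peptide that blocks Src signalling by the Na/K-ATPase. The labels do not say what the cells were, what "adipo" stands for, or when after surgery the tissues were taken. The 76 libraries made 74 samples, 5 in every group except VFAT scrambled cells with 4.

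Heat shock chaperones bind unfolded protein chains and help them fold or be degraded. In mammalian cells the inducible members are switched on by heat shock factor 1, which binds heat shock elements in their promoters, repeats of GAA in alternating orientation. Other members are made at high levels in unstressed cells, and the mitochondrial pair folds proteins imported into mitochondria. In kidney and heart the inducible forms are known to rise after ischaemia.

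The 2 inducible HSP70 genes, Hspa1a and Hspa1b, lie on chromosome 17 of GRCm38 on the minus strand, Hspa1b at 34956436 to 34959238 and Hspa1a at 34969190 to 34972156, 9951 bases apart. Hsph1 lies on chromosome 5 at 149614287 to 149636376 on the minus strand. The mitochondrial pair lies on chromosome 1, Hspd1 at 55077835 to 55088243 on the minus strand and Hspe1 at 55088132 to 55091307 on the plus strand, and the annotated ends of these divergent genes overlap by 112 bases. All 10 are protein coding. RefSeq promoter windows (build GRCm38.p6) matched 7 of the 10 members, and the 3 without one were Hspa8, Hsp90aa1 and Hsp90ab1. The 250 bases before the RefSeq start follow for the 3 members that passed a test after PNx and for Hspe1, whose window lies inside the annotated Hspd1 gene on the other strand, with GAANNTTC and TTCNNGAA in capitals.
Hspa1a, chr17:34972157-34972406, minus strand: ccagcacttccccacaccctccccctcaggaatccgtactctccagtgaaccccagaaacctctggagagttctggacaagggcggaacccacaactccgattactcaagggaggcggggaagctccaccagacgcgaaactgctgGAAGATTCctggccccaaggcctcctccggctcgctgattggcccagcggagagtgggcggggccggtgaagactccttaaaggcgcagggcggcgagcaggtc
Hspa1b, chr17:34959239-34959488, minus strand: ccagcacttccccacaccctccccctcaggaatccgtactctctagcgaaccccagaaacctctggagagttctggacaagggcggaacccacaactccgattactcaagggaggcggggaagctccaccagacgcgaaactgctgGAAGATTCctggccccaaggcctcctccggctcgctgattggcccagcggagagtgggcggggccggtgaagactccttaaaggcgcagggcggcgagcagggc
Hsph1, chr5:149636337-149636586, minus strand: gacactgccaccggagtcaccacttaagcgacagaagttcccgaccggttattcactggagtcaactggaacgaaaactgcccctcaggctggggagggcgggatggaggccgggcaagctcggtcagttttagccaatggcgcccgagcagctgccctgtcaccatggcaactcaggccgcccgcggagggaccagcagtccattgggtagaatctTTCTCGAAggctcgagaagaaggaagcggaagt
Hspe1, chr1:55087898-55088147, plus strand: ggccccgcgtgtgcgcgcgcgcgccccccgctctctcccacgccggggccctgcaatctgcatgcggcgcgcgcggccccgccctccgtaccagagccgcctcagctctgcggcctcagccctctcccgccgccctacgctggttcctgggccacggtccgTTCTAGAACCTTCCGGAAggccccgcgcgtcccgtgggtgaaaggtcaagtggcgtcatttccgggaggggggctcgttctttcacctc

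The windows of Hspa1a and Hspa1b were identical at 247 of 250 bases. The substitutions from Hspa1a to Hspa1b, counted from 1 at the 5′ end of the window, were C44T, T47C and T249G, and none lay in the capitals. Each of these windows held 1 GAANNTTC and no TTCNNGAA, starting 104 bases before the start site. The Hsph1 window held 1 TTCNNGAA, and the Hspb1 window, not shown, held 2 copies of GAANNTTC. The Hspe1 window held 3 overlapping matches in a run of alternating units, starting at 89 bases before the start. One of the windows of Hspd1 covers the same run from the other strand. Either 8-letter form, each its own reverse complement, was in 12.8% of 32851 RefSeq promoter windows of the same length. The longer forms GAANNTTCNNGAA and TTCNNGAANNTTC, reverse complements of each other, were in 0.466% of windows, and among the members with a window they were found at Hspd1 and Hspe1. These are matches of letters, and no match in a window says nothing of sites outside it.

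Because Hspa1a and Hspa1b are near-identical, their counts are uncertain as separate values. Of the 2754 distinct stretches of 50 bases (the read length) in Hspa1b transcripts, 62.3% were also in Hspa1a, and 58.8% of the Hspa1a stretches were in Hspa1b. The ratio of Hspa1b to Hspa1a counts was 0.800 to 1.35 across heart samples, 1.15 to 1.496 in kidney and 1.11 to 1.61 in VFAT. How reads from shared stretches were counted is not known, so the ratio cannot show whether the genes moved together. Their sum is given where it helps. Sharing with other genes, mostly annotated pseudogenes, was 39.4% of stretches for Hspa8, 47.5% for Hsp90aa1, 50.1% for Hspb1, 42.1% for Hspd1, 22.8% for Hspe1, 3.44% for Hsp90ab1 and 0.412% for Dnajb1. Hsph1 shared none.

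Library totals ran from 1241590 to 20037187 counts. Several libraries held markers of another tissue, listed here since they touch results below. Summed epididymis markers (6 genes) were at 190 to 21839 CPM (counts scaled to library size) in the 5 VFAT Sham samples and at most 52.7 CPM in the other 19 VFAT samples. Adipocyte markers (6 genes) were at 1464 to 13479 CPM in VFAT Sham and at 9052 to 15581 CPM in the other VFAT samples. VFAT scrambled samples held skeletal muscle markers at 465 to 32845 CPM, and sample 4 also held leukocyte markers at 6231 CPM. Pancreas markers (6 genes) were at 2.09, 2957, 15435 and 429.8 CPM in VFAT scrambled samples 1 to 4 and at most 6.54 CPM in the other 20 VFAT samples. VFAT Sham 3 held skeletal muscle markers at 8653 CPM. Heart Sham 2 and 3 held proximal tubule markers at 923 and 2658 CPM, against 6.41 to 93.0 CPM in the other 23 heart samples. All kidney samples held proximal tubule markers (7619 CPM or more) and all heart samples held heart muscle markers (27686 CPM or more). Kidney Sham 3 is the sum of a library and a second library of that number, which disagree for several members: Hspa1a was 28.4 and 162 CPM of the plain total and Hsph1 92.6 and 226 CPM. The labels do not say whether the second library came from the same animal. Across genes, which are not independent, its log2 CPM correlated with library 3 at r = 0.973, below the other 14 pairs of kidney Sham libraries (0.979 to 0.992). The labels do not say that samples of a group came from separate animals, so p-values measure the spread between these samples.

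In Sham tissue Hspa8 or Hsp90ab1 had the highest mean level of the members, and the tissues differed most in the small chaperone Hspb1 and in the Hspa1 pair. Levels per length are given as FPKM, fragments scaled to gene length and to a size factor of each library (not its plain total), as the mean ± SD of 5 Sham samples. Hsp90ab1, the constitutive cytosolic HSP90, was at 461 ± 61.6 in heart, 309.5 ± 9.66 in kidney and 269 ± 90.4 in VFAT. Hspa8, the constitutive HSP70 that serves housekeeping folding and clathrin uncoating, was at 347 ± 76.3, 515 ± 11.8 and 162 ± 33.0 in the same order. It led the order in kidney, and Hsp90ab1 led in heart and VFAT. In heart the ranges of Hsp90ab1, Hspb1 and Hspa8 overlapped, while in kidney those of Hspa8, Hsp90ab1 and Hspd1 were apart. Hsp90aa1, the stress-responsive HSP90, was lower in every tissue, at 30.6 ± 10.2, 68.9 ± 6.13 and 54.2 ± 5.26 FPKM.

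Hspb1, the small chaperone that binds actin and unfolded proteins, was at 398 ± 176 FPKM in Sham heart, 14.2 ± 7.30 in kidney and 45.0 ± 17.6 in VFAT. Heart was 25.6-fold above kidney (edgeR log2 fold change 4.68, SE 0.42, adjusted p = 6.73e-15) and VFAT 3.04-fold above kidney (adjusted p = 2.36e-04). The inducible pair showed the opposite order: Hspa1a was at 2.1 ± 0.88 FPKM in heart, 17.8 ± 11.6 in kidney and 13.8 ± 9.69 in VFAT. Hspa1b was at 2.68 ± 1.18, 26.0 ± 18.2 and 19.6 ± 14.2 FPKM. Hspa1a was 9.68-fold lower in heart than in kidney (log2 fold change -3.28, SE 0.52, adjusted p = 1.81e-07), and kidney and VFAT did not differ past the threshold (adjusted p = 0.435). The VFAT Sham values spread over a wide range that followed the epididymis markers, as described below. The mitochondrial chaperonin Hspd1 was at 134 ± 10.1 FPKM in heart, 223 ± 10.5 in kidney and 98.6 ± 32.4 in VFAT, and its partner Hspe1 at 76.9 ± 17.5, 71.7 ± 4.09 and 33.3 ± 9.82. Hsph1, an HSP110 that exchanges nucleotide on HSP70, was at 6.27 ± 0.836, 15.9 ± 3.67 and 3.12 ± 0.802 FPKM. Dnajb1, the HSP40 that delivers clients to HSP70, was at 5.12 ± 0.765, 11.1 ± 0.997 and 13.5 ± 3.21 FPKM.

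**Figure D1:**
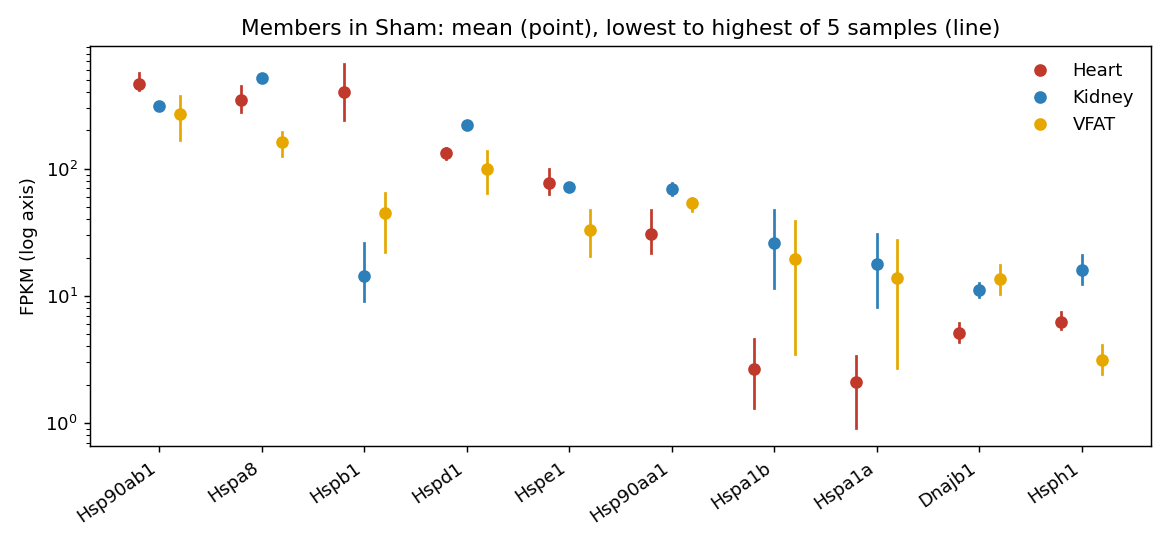
FPKM of the 10 members in Sham samples (vertical log axis) by gene and tissue; points are means and lines run from the lowest to the highest of 5 samples. Hspb1 lies at 398 in heart and 14.2 in kidney, while Hspa1a lies at 2.1 in heart and 17.8 in kidney.

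Tested in 1 fit over all tissues, 9 of 10 members differed between Sham heart and kidney, where 58.7% of all genes did. The exception was Hspe1 (adjusted p = 0.997), and Hspb1 and Hsp90ab1 were the 2 called higher in heart. Between VFAT and kidney 5 of 10 were called, against 51.5% of all genes, with Hspb1 higher and Hspa8, Hspd1, Hspe1 and Hsph1 lower in VFAT. Between VFAT and heart 9 of 10 were called, against 57.1% of all genes, with Hspd1 the exception (adjusted p = 0.0885). These counts include the Sham samples that hold markers of other tissues.

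After partial nephrectomy, 2 members fell in VFAT, 1 fell in kidney and none passed the test in heart. Hspa1b and Hspa1a fell 4.25-fold and 4.03-fold in VFAT, and Hsph1 fell 1.66-fold in kidney. In VFAT 2 of 10 members were called, against 13% of all genes, in kidney 1 of 10 against 16.8%, and in heart 0 of 10 by edgeR against 0.126%. The share in kidney was below the background, and the 2 calls in VFAT were the near-identical pair. The median log2 fold change of the members was -0.28 in heart, -0.17 in kidney and -0.12 in VFAT, beside medians of -0.00, 0.05 and 0.01 over all genes tested. In heart 4 of 10 members had an unadjusted p under 0.05, as did 15.8% of all genes, and DESeq2 called 1, Hsp90ab1, and 2.29% of all genes. Between the heart arms 6 of 7 tested proximal tubule markers fell after PNx, and atrial markers were at 19.4 to 159 CPM in Sham and 36.1 to 5243 CPM in PNx, whose part in these values was not tested.

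**Figure D2:**
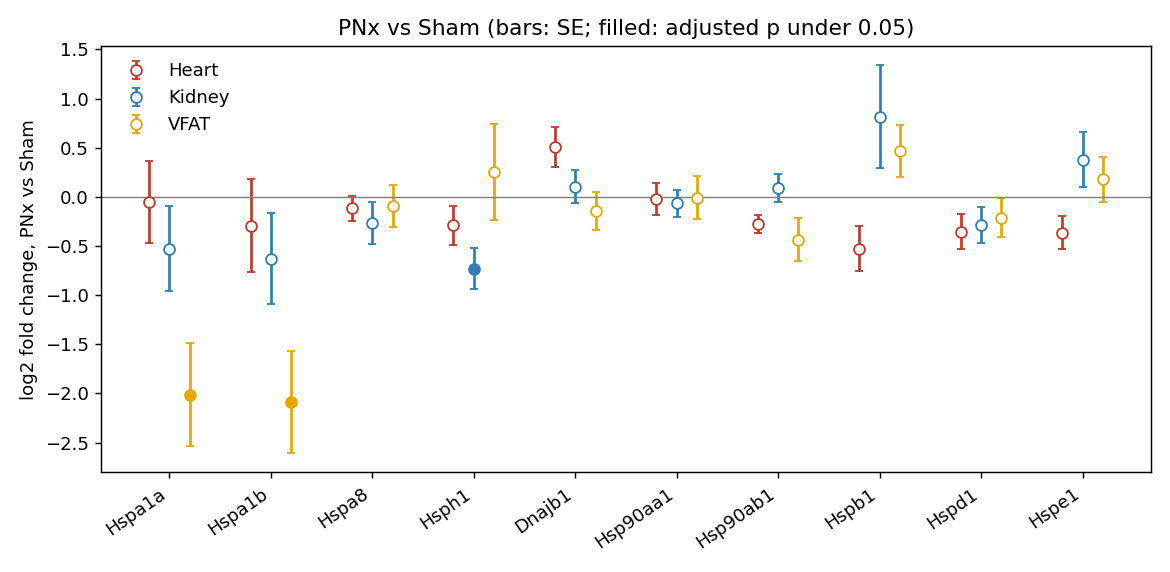
Log2 fold change of each member in PNx against Sham (vertical axis) with its SE, by tissue, from the edgeR fits of 5 samples an arm. The filled points are Hspa1a and Hspa1b in VFAT and Hsph1 in kidney, and the remaining 27 points are open.

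In VFAT Sham, Hspa1a was at 64.0, 9.47, 24.1, 96.8 and 48.9 CPM in samples 1 to 5, and in PNx at 13.7, 8.10, 11.8, 12.8 and 14.0 CPM. Hspa1b was at 93.2, 11.4, 30.6, 129 and 61.5 CPM in Sham and at 17.3, 11.7, 14.1, 18.1 and 15.5 CPM in PNx. In both genes 4 of 5 Sham samples lay above every PNx sample, and Sham 2 lay among or below the PNx samples. The log2 fold change was -2.01 for Hspa1a (SE 0.53, adjusted p = 0.0150) and -2.09 for Hspa1b (SE 0.52, adjusted p = 0.0105). Summed to 1 feature, the pair gave -2.06 (adjusted p = 0.0120). The group means were 114 ± 81.6 CPM in Sham and 27.4 ± 4.70 CPM in PNx for the sum (SD, n = 5 each).

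Markers of several cell sources differed between these arms. Leukocyte markers (6 genes) were at 133 to 312 CPM in VFAT Sham and 378 to 783 CPM in PNx without overlap. Of the 6, Coro1a and Lyz2 rose. Adipocyte markers were at 1464 to 13479 CPM in Sham and 13541 to 15406 CPM in PNx, also without overlap, and Cfd rose. Skeletal muscle markers were at 8.13 to 8653 CPM in Sham and 11.1 to 23.6 CPM in PNx. Of those, Myh4, Mylpf, Tnnt3 and Ckm were called lower. Of the later nephron markers only Atp6v1g3 was called lower (240-fold), and of the heart muscle markers only Myh6 (29.1-fold). Atp6v1g3 was at 22.7 ± 17.7 CPM in Sham, where the summed later nephron markers reached at most 47.0 CPM. Myh6 was at 5.08 ± 10.7 CPM in Sham, with an SD above its mean. Single genes do not show that nephron or heart tissue was present. The part of these markers in the result was not tested. Epididymis markers were high in the arm where the pair was high. Their summed level in VFAT Sham 1 to 5 was 21839, 190, 3242, 15732 and 6791 CPM, and the 2 samples highest in markers, 1 and 4, were also the 2 highest in the pair. The sample lowest in markers, Sham 2, was the lowest in the pair. Without Sham 1 and 4, Hspa1a gave -1.19 (adjusted p = 0.280) and Hspa1b -1.17 (adjusted p = 0.257), and 3.09% of all genes were called. Against Sham 2 alone, whose spread is then assumed to be that of the other groups, they gave 0.35 (adjusted p = 0.931) and 0.43 (adjusted p = 0.913). With the marker level as a covariate the estimates were -2.04 (adjusted p = 0.700) and -1.73 (adjusted p = 0.717). Against Sham 2 alone and with the covariate 0% of all genes were called, so these settings ended every call in the comparison and not only those of the pair. Leaving out Sham 4 by itself ended both calls (adjusted p = 0.0736 and 0.0549), as did a fit of only the 2 arms (adjusted p = 0.0622 for both), where 2.53% of all genes were called. Since every Sham sample held more epididymis marker RNA than any other VFAT sample, the arm and the marker level cannot be told apart. Nor can fewer cells of a type be told apart from less RNA per cell in such bulk samples.

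**Figure D3:**
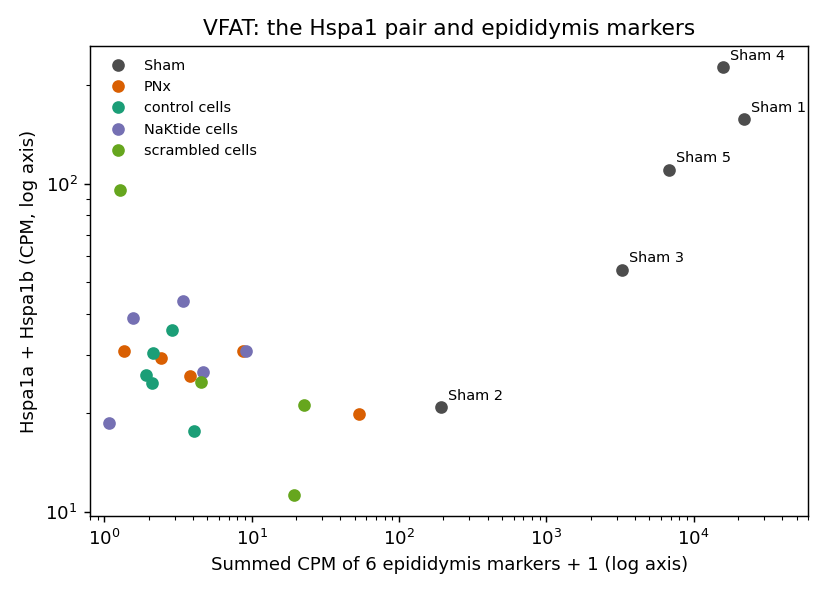
Summed CPM of Hspa1a and Hspa1b (vertical log axis) against the summed CPM of 6 epididymis markers plus 1 (horizontal log axis) in 24 VFAT samples, coloured by arm. Sham 1, 3, 4 and 5 lie at the upper right, Sham 2 lies at 20.9 CPM on the vertical axis, and 1 scrambled sample reaches 95.9 CPM with few markers.

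In the VFAT arms with cells the pair ranged more widely than in PNx, whose samples lay between 19.8 and 30.9 CPM. The sum was 17.7 to 35.8 CPM with control cells (mean 27.0) and 18.6 to 43.9 CPM with NaKtide cells (mean 31.8, n = 5 each). Scrambled cells had 11.3, 21.1, 24.8 and 95.9 CPM, the last being the sample with leukocyte markers at 6231 CPM, against 133 to 1177 CPM in the other 23 VFAT samples. The part of those markers in that value was not tested. In each arm with cells at least 1 sample lay below and at least 1 above all PNx samples.

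In kidney the pair was high in a few samples of 2 arms. The sum in Sham was 75.7, 62.6, 242, 58.0 and 223 CPM, and in PNx 139, 72.1, 106, 67.9 and 57.0 CPM. Control cells gave 114, 96.0, 64.2, 48.3 and 60.5 CPM, and scrambled cells 91.9, 85.9, 38.3, 138 and 152 CPM. NaKtide cells gave 70.0, 308, 183, 85.0 and 252 CPM. Sham 3 and 5 and NaKtide 2, 3 and 5 were above all others, with the next sample at 152 CPM, and within Sham 3 the second library carried the high value. PNx against Sham gave -0.53 for Hspa1a (SE 0.43, adjusted p = 0.347) and -0.63 for Hspa1b (SE 0.46, adjusted p = 0.294). NaKtide cells against PNx gave 0.97 (SE 0.43) and 1.07 (SE 0.47), both with adjusted p = 0.258. All arms overlapped.

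Heart had the lowest levels of the pair, resting on 13 to 67 counts of Hspa1a in each Sham and PNx library. The sum was 9.73, 11.5, 18.6, 10.3 and 5.15 CPM in Sham and 16.8, 7.17, 7.02, 4.68 and 10.7 CPM in PNx. The arms overlapped, and PNx against Sham gave -0.05 (SE 0.42, adjusted p = 0.976) for Hspa1a. Across all 25 heart samples the sum ran from 4.30 to 21.8 CPM, both extremes in the scrambled arm.

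**Figure D4:**
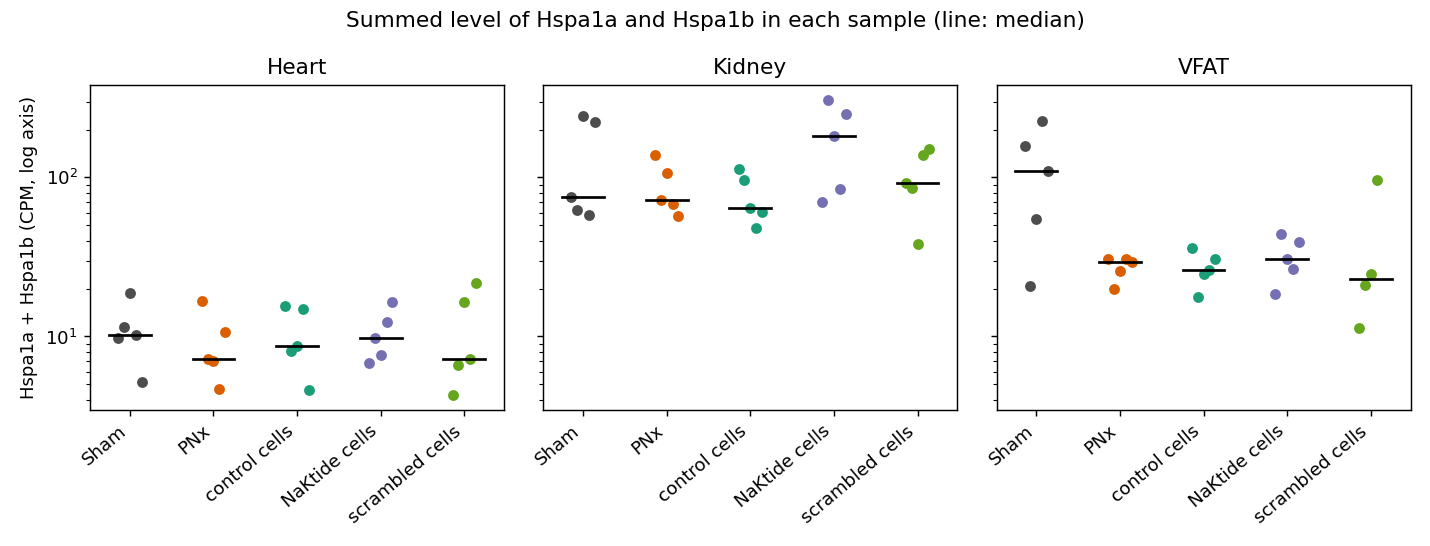
Summed CPM of Hspa1a and Hspa1b in each sample (vertical log axis) by arm in heart, kidney and VFAT, with a line at the median. VFAT Sham spans 20.9 to 226 CPM and kidney NaKtide cells 70.0 to 308 CPM, while all heart samples lie at or under 21.8 CPM.

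Hsph1 was the member that passed the test in kidney. It was at 117, 94.1, 163, 93.5 and 134 CPM in Sham and at 87.5, 66.3, 49.7, 61.6 and 97.4 CPM in PNx. The groups overlapped, with PNx 5 above Sham 2 and 4. The log2 fold change was -0.73 (SE 0.21, adjusted p = 0.0305). Without the second library of Sham 3 it was -0.56 and no longer called (adjusted p = 0.0521), as with only the 2 arms in the fit (-0.72, adjusted p = 0.0651). All-gene calls were 18.2% and 0.979% in these fits. The call was also lost in 6 of 10 fits that left out 1 sample, those without PNx 3 or 4 or without Sham 1, 3, 4 or 5 (adjusted p 0.0505 to 0.112). Kidney PNx 3 to 5 also stood apart in the ratio of short to long genes. The mean log2 CPM of the shortest quartile of genes minus the longest was 0.02 to 0.19 there and -1.09 to -0.90 in Sham. Kidney control cells 4 and 5 had still higher values (0.27 and 0.28). With that index as a covariate Hsph1 gave -0.62 (adjusted p = 0.122), so the call depends on that setting. With PNx 1 and 2 as the only PNx samples, without PNx 3 to 5 and control cells 4 and 5, Hsph1 gave -0.66 (adjusted p = 0.433). The share of all genes called was 3.48% with the index and 0.572% without those samples. Clock genes moved too: their summed level (14 genes) was 914 to 1078 CPM in kidney Sham and 432 to 656 CPM in PNx, with 7 called lower and 2 higher, and leukocyte markers were at 33.8 to 50.2 CPM in Sham and 40.9 to 1054 CPM in PNx. Their part in the result was not tested.

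Across all kidney arms Hsph1 was 98.3 ± 6.51 CPM with control cells, 127 ± 43.7 with NaKtide cells and 75.4 ± 12.4 with scrambled cells. Its 5 highest values of 25, 124 CPM and above, were in the same 5 samples as the 5 highest values of the Hspa1 pair. NaKtide cells differed from scrambled cells by 0.76 (SE 0.21, unadjusted p = 0.00143), which did not pass adjustment over all genes (adjusted p = 0.754). The difference over all 5 kidney arms gave adjusted p = 0.0603. In heart Hsph1 was at 36.1, 39.1, 32.7, 31.4 and 43.8 CPM in Sham and 17.9, 23.1, 34.1, 42.7 and 32.5 CPM in PNx (adjusted p = 0.485). In VFAT it was uneven within arms: 60.9 and 47.4 CPM in PNx 1 and 2 but 15.7 to 18.1 CPM in PNx 3 to 5. The 4 highest VFAT samples for Hsph1, 56.7 CPM and above, were PNx 1, control cells 3 and NaKtide cells 2 and 3, and the same 4 were highest in Hsp90aa1. None of those 4 was among the 4 highest for the Hspa1 pair.

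**Figure D5:**
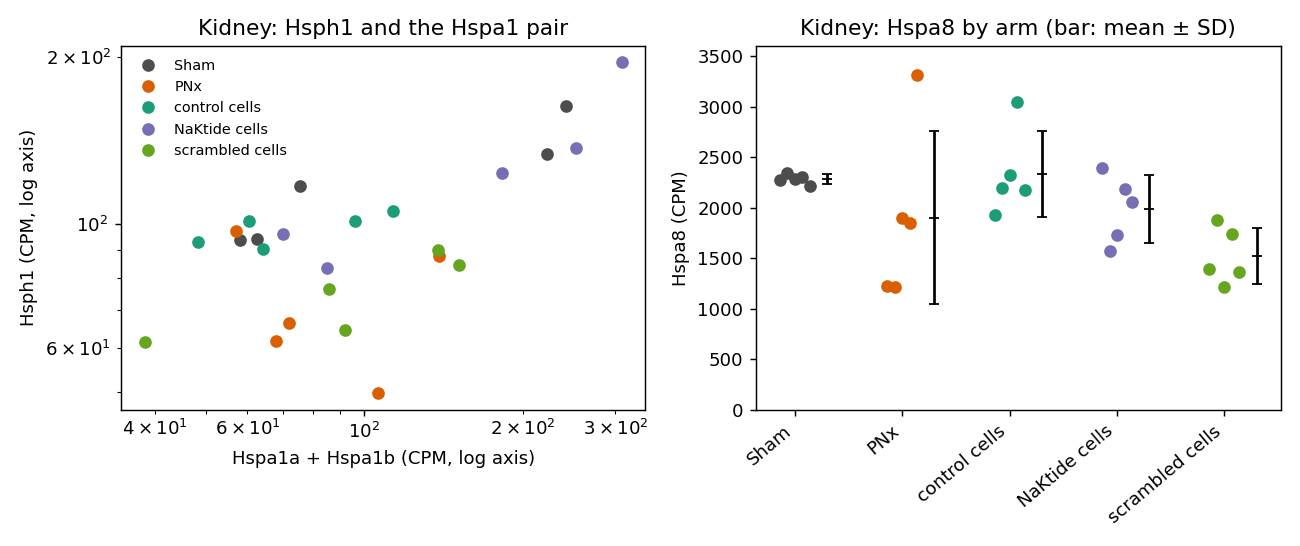
Left, CPM of Hsph1 (vertical log axis) against the summed CPM of Hspa1a and Hspa1b (horizontal log axis) in 25 kidney samples by arm. Right, CPM of Hspa8 in each kidney sample by arm with mean ± SD; Sham lies between 2216 and 2345 and PNx between 1213 and 3314.

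Hspa8 was steady in Sham kidney and spread out after PNx. Sham samples were at 2276, 2345, 2283, 2299 and 2216 CPM, and PNx samples at 1226, 1213, 1895, 1850.1 and 3314 CPM. In this comparison 4 of 5 PNx samples lay below all Sham samples and PNx 5 lay above them. The difference did not pass (log2 fold change -0.27, SE 0.22, adjusted p = 0.343). Without PNx 5 it was -0.59 (adjusted p = 0.0481), and with the length index as covariate -0.68 (adjusted p = 0.0385). Without Kidney PNx 3 to 5 and control cells 4 and 5 it was -0.91 (adjusted p = 0.0304), so its call depends on those samples. That last fit held only PNx 1 and 2 from the PNx arm. Scrambled cells, at 1391, 1877, 1218, 1736 and 1367 CPM, also lay below all Sham samples, while control cells were at 2333 ± 426 CPM. Scrambled against control cells gave -0.62 (SE 0.22, adjusted p = 0.349). In heart PNx Hspa8 was 1105 ± 128 CPM beside 1198 ± 267 in Sham, and in VFAT PNx 775 ± 171 beside 827 ± 174 (adjusted p = 0.688 and 0.821).

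Dnajb1 was the member with a higher estimate after PNx in heart. Its values were 12.3, 15.6, 12.3, 14.5 and 11.2 CPM in Sham and 24.3, 16.8, 15.9, 13.6 and 22.9 CPM in PNx. In 4 of 5 PNx samples it lay above all Sham samples, but the test over all genes did not call it (log2 fold change 0.51, SE 0.21, adjusted p = 0.234). In kidney the change was 0.10 (SE 0.17) and in VFAT -0.14 (SE 0.19). Neither passed (adjusted p = 0.659 and 0.681).

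No HSP90 gene passed the edgeR test after PNx, and Hsp90ab1 was called by other tools. Hsp90ab1 in heart was at 1085, 1356, 1104, 999 and 1013 CPM in Sham and 777, 878, 962, 1012 and 963 CPM in PNx. Of the PNx samples, 4 lay below all Sham samples and PNx 4 lay between Sham 4 and 5. The log2 fold change was -0.28 (SE 0.09, adjusted p = 0.183), and DESeq2 called it (-0.29, adjusted p = 0.0345). In VFAT Hsp90ab1 was at 1343, 586, 710.3, 1250.5 and 908 CPM in Sham, highest in the 2 samples with the most epididymis markers, and 710.0 ± 101 CPM in PNx (adjusted p = 0.202). There limma voom with quality weights called it (-0.43, adjusted p = 0.0471) beside the Hspa1 pair, 3 of 10 members against 26.5% of all genes. Hsp90aa1 differed between PNx and Sham by -0.02, -0.07 and -0.01 in heart, kidney and VFAT (SE 0.16, 0.14 and 0.22).

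Hspb1 was uneven in every tissue. In heart Sham it was at 252, 546, 412, 237 and 201 CPM and in PNx at 252, 189, 197, 285 and 219.8 CPM. Sham 2 and 3, the samples with proximal tubule markers and with the highest short-to-long gene index of the heart samples (0.23 and 0.07), were the 2 highest of all 25 heart samples in Hspb1, Hspe1 and Hspa8. The part of those markers was not tested. With the index as a covariate 0 members were called in heart PNx against Sham, and 12 of 15091 genes. With Sham 2 and 3 the Hspb1 change was -0.53 (SE 0.23, adjusted p = 0.259), and without them it was -0.03. In kidney PNx Hspb1 was at 79.0 CPM in sample 3, the PNx sample with leukocyte markers at 1054 CPM, and at 9.44 to 20.1 CPM in the other 4. The kidney difference was 0.82 (SE 0.52, adjusted p = 0.226), and it was -0.13 without PNx 3. In VFAT NaKtide cells Hspb1 was 104 ± 34.2 CPM, beside 75.8 ± 23.7 in PNx and 92.2 ± 19.0 with scrambled cells, and neither comparison passed.

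The mitochondrial chaperonin genes, which fold imported proteins as a barrel and its lid, showed different values although their annotated starts overlap. Hspd1 in kidney was at 606, 609, 612, 645 and 565 CPM in Sham and 543, 504, 232, 535 and 671 CPM in PNx (log2 fold change -0.29, SE 0.18, adjusted p = 0.224). Hspe1 in the same samples was at 107, 107, 117, 114 and 101 CPM in Sham and 117, 103, 119.5, 154 and 216 CPM in PNx (0.38, SE 0.28, adjusted p = 0.294). For both genes the groups overlapped. With the length index as covariate, the Hspe1 estimate was -0.21, so its sign depends on that setting.

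Hspe1 was the only member called in the test over all 5 heart arms (adjusted p = 0.0347), where 7.94% of all genes were called. It was at 77.3, 116, 112, 73.9 and 76.4 CPM in Sham, 60.3, 59.3, 63.0, 87.0 and 83.7 CPM in PNx and 70.3, 68.8, 54.3, 73.5 and 63.7 CPM with control cells. NaKtide cells gave 59.1, 60.2, 58.2, 89.4 and 62.2 CPM and scrambled cells 59.9, 55.6, 36.3, 49.1 and 53.8 CPM. All scrambled samples lay below all Sham samples, and the 2 highest Sham samples were again those with tubule markers. In kidney the same test called 0 of 10 members by edgeR, where 1.83% of genes were called and 1 member, Hsph1, had an unadjusted p under 0.05, as did 27.4% of genes. In VFAT it called 2 of 10, Hspa1a and Hspa1b, against 18.4% of genes.

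No member passed the test in any of the 12 comparisons between PNx arms. With control cells against PNx, 0 of 10 were called in each tissue, where 0% of genes were called in heart, kidney and VFAT. NaKtide cells against PNx likewise called 0 of 10 in each tissue, against 0% of genes. Between NaKtide and scrambled cells 0 of 10 were called, against 0% of genes in heart and kidney and 2.36% in VFAT. Between scrambled and control cells 0 of 10 were called, against 0% in heart, 0.0123% in kidney and 2.41% in VFAT. At an unadjusted p under 0.05 the largest count was 3 of 10 members, for NaKtide cells against PNx in kidney, namely Hsph1, Hspa1b and Hspa1a, where 19.1% of all genes reached it. There limma voom with quality weights called 4 of 10 members against 41.5% of all genes, a share near the background. Hsph1 was higher with NaKtide cells (0.95, adjusted p = 0.00607), as were Hspa1b and Hspa1a (1.48 and 1.40), while Hspe1 was lower (-0.69). For NaKtide against scrambled cells in kidney voom called the same 4 in the same directions, against 27% of all genes. For NaKtide cells against PNx it called 1 member in heart, Hsph1 (0.52), against 3.79% of all genes. In VFAT that comparison gave Hspa8, Hspb1 and Hsph1 higher and Hspd1 lower, 4 of 10 members against 21.6% of all genes. DESeq2 called none in these comparisons. In VFAT the largest estimates between NaKtide and scrambled cells were 0.70 for Hsph1 (SE 0.52, adjusted p = 0.520) and 0.64 for Hsp90aa1 (SE 0.23, adjusted p = 0.120).

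The PNx effect was not shown to differ between tissues for any member. Tested as an interaction, 0 of 10 were called for heart minus kidney (12% of genes), VFAT minus kidney (11.7%) and VFAT minus heart (9.41%). At an unadjusted p under 0.05 the counts were 2, 4 and 3 of 10 members, against 30.4%, 27.7% and 24.1% of all genes. The lowest adjusted p was 0.0606, for Hspa1a in VFAT minus heart, with a difference of -1.97 on the log2 scale (SE 0.70). Dropping the second libraries gave 1 call in each of 2 interactions, Hspb1 for heart minus kidney (11.9% of all genes called) and Hspa1a for VFAT minus kidney (12%). The interaction tests and the Sham tests between tissues treated libraries of different tissues as independent. The labels do not say which of them came from 1 animal.

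The genes most like the members differed by tissue. Likeness was Pearson's r over the samples of a tissue between log2 CPM values, which share library and depth, given as description. For the summed Hspa1 pair in 24 VFAT samples the 5 closest were Ckap4 (r = 0.953), Cdc42se2 (0.932), Hspa5 (0.923), Hyou1 (0.920) and Lcp1 (0.917). Hspa5 and Hyou1 are chaperones of the endoplasmic reticulum. In 25 kidney samples they were Pax2 (0.866), Slco4a1 (0.848), Ptpn14 (0.834), Gprc5b (0.812) and Ehf (0.810), and in 25 heart samples Men1 (0.784), Plod3 (0.756), Unc45a (0.742), Smox (0.737) and Mmp23 (0.735). Unc45a is an HSP90 cochaperone for myosin. For the mean of the 10 standardized members the closest were Dnajb2 (0.875), an HSP40, with Eif3d, Cyp2u1, Gstp1 and Cnot10 (0.847 to 0.860) in heart, and Plekhg3 (0.784), Ryk, Rbm14, Elavl1 and Zbtb40 (0.652 to 0.703) in kidney. In VFAT they were Ifi30 (0.851), Marcksl1, Tagln2, Mid1ip1 and Ppp1r15a (0.820 to 0.826).

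Among other genes of the pathway, HSP70 cochaperones in kidney and endoplasmic reticulum chaperones in VFAT held the most calls after PNx. In kidney 4 of 9 HSP70 cochaperones fell, where 7.56% of all genes fell, and 1 rose, with a median of -0.53 beside 0.05 over all genes. With the short-to-long gene index as covariate 1 of the 9 was called, Dnajb6, and without Kidney PNx 3 to 5 and control cells 4 and 5 also 1, Dnaja1. With only the 2 arms in the fit 0 were called by edgeR. The share of all genes called was 3.48%, 0.572% and 0.979% in these fits, in that order. Dnajb6, an HSP40 that holds back aggregation, fell from 78.4 ± 7.20 to 54.4 ± 11.6 CPM (adjusted p = 0.0168). Dnaja2, another HSP40, fell from 145 ± 6.53 to 83.6 ± 29.3 CPM (adjusted p = 0.0275), and St13, which links HSP70 to HSP90, from 158 ± 7.78 to 100.1 ± 32.1 CPM (adjusted p = 0.0311). Hspbp1, which releases nucleotide from HSP70, rose from 32.4 ± 2.52 to 64.7 ± 27.3 CPM (adjusted p = 0.0364). Of 7 HSP90 cochaperones, Chordc1 and Ptges3 fell (1.48-fold and 1.47-fold). Of the 4 genes in the heat shock factor list, Hsf2 fell 1.61-fold and Hsf4 rose 2.82-fold, while Hsf1 and the factor-binding protein Hsbp1 were not called. Among 8 endoplasmic reticulum chaperones Dnajb9 fell 2.44-fold and Sdf2l1 rose 1.83-fold. Hspa12a fell 1.74-fold, the only call of 7 other HSP70 and HSP110 genes tested, and none of 8 chaperonin subunits, 7 mitochondrial chaperones and proteases or 5 other small heat shock proteins was called in kidney.

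In VFAT all 8 endoplasmic reticulum chaperones fell after PNx, where 8.18% of all genes fell, with a median of -1.66 beside 0.01 over all genes. Sdf2l1 fell from 101 ± 73.8 to 7.96 ± 1.68 CPM (adjusted p = 6.45e-04) and Pdia4, Hyou1 and Hsp90b1 fell 3.89-fold, 4.49-fold and 3.27-fold. The same Sham samples held the epididymis markers, all 6 of which fell. Without Sham 1 and 4 the count was 4 of 8, with the marker level as covariate it was 0 by edgeR, and a fit of these 2 arms alone called 1, Sdf2l1. The share of all genes called, in either direction, was 3.09%, 0% and 2.53% in these fits, in that order. Against Sham 2 alone the median of the 8 was 0.05. Of 8 other HSP70 and HSP110 genes, Hspa13 fell 2.57-fold and Hspa4 1.36-fold, and Fkbp4 and Cct2 were the single calls among HSP90 cochaperones and chaperonin subunits. Between scrambled and control cells 2.41% of all genes were called. With scrambled cells 3 of 5 other small heat shock proteins tested were higher than with control cells: Hspb6 6.01-fold, Hspb2 17.2-fold and Cryab 8.05-fold. These 3 genes are abundant in muscle, and skeletal muscle markers were at 465 to 32845 CPM in scrambled samples and 4.92 to 26.1 CPM with control cells. The part of those markers in these values was not tested. NaKtide cells were lower than scrambled cells in Hspb6 (6.15-fold) and in the mitochondrial HSP40 Dnaja3 (1.53-fold). In heart none of the 8 lists of chaperones, cochaperones and heat shock factors beside the members held a call after PNx by edgeR.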

How the data were processed

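How reads were counted, with which strand setting and annotation, is not given in the sources used here. Flash-frozen tissue RNA was sequenced as paired 50-base reads, per the labels' protocols. The submitters' processing notes name the build GRCm38, the trimmer Trimmomatic (version 0.38), the aligner HISAT2 (version 2.1.0) and DESeq2 in versions 1.20.0 and 1.20.1. The deposited raw counts per gene were used for all tests, and the deposited FPKM only for levels between genes. The FPKM made by the authors equal size-factor-scaled counts times 1 constant per gene (16040 genes checked, relative spread at most 9.97e-15).

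Each second library of number 3 (kidney Sham, VFAT scrambled cells) was summed with library 3. Counts were tested with the quasi-likelihood test of edgeR 4.0.16 in R 4.3.3 (TMM scaling, filterByExpr), over all 5 arms of a tissue, or all 15 groups for tissue contrasts, two-sided, with Benjamini-Hochberg adjustment over all genes and calls at adjusted p under 0.05. CPM are scaled by TMM, marker sums by plain totals. Log2 CPM used a prior count of 2. Alternatives used DESeq2 1.42.0 and limma 3.58.1. Code was tested on simulated data. The members and lists were chosen with earlier results of these data known. All 10 members were named, with up to 4 called genes per other list by lowest adjusted p, and the 5 genes of highest Pearson r per tissue among those averaging 3 or more in log2 CPM. Loci are from GENCODE M21 and promoters from RefSeq.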

Additional observations from a re-analysis of the deposited data

Results flagged for a closer look

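Of 150 groups of a gene in an arm, 8 held 1 sample whose gap to its nearest neighbour, relative to the group's range, passed Dixon's 95% critical value, which chance does in about 1 of 20 groups. VFAT scrambled cells 4 was high in 3 members. Hspa1a was at 43.4 CPM there, and at 4.32 to 10.6 CPM in the other 3 samples. Hspa1b was at 52.6 CPM, and at 6.95 to 14.2 CPM in the others. Hspa8 was at 1533 CPM, and at 701 to 809.8 CPM in the others. The same sample held leukocyte markers at 6231 CPM, whose part was not tested.

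Hspb1 in kidney PNx 3 was at 79.0 CPM, and at 9.44 to 20.1 CPM in the other 4 samples. Hspd1 in kidney control cells 5 was low, at 422 CPM, beside 514 to 537 CPM. That sample had the lowest library total of the series (1241590 counts) and a short-to-long gene index of 0.28, whose part was not tested. Hspe1 held 3 flags, each in an arm with NaKtide cells. It was at 89.4 CPM in heart sample 4 beside 58.2 to 62.2 CPM, at 219 CPM in kidney sample 1 beside 83.6 to 119 CPM, and at 147 CPM in VFAT sample 1 beside 46.7 to 70.5 CPM. In each tissue that sample also had the highest short-to-long gene index of its arm (-0.24, -0.15 and -0.24), and its part was not tested.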

How the results depend on the processing

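Of the counts of called members, 317 values under an alternative stayed within 1.5 times the reported count and 22 did not. Among the 317 were counts of 0 in comparisons where 0% of all genes were called. A count can also stay while its gene changes. In kidney PNx against Sham the 1 called member was Hspa8, not Hsph1, with the length index. The same held without PNx 3 to 5 and control cells 4 and 5. Log2 fold changes were compared for PNx against Sham and for NaKtide against scrambled cells only. Of these, 1121 kept direction and side of the threshold, 18 lost and 9 gained a call, and 80 changed sign. Calls that voom gained for NaKtide cells against PNx, given below, are not in these counts. For PNx against Sham, DESeq2 called 1 member in heart. In kidney the count was 0 with only the 2 arms and 0 with the second library dropped, and 0 to 2 with 1 sample left out. In VFAT it was 0 with only the 2 arms, 1 with the pair summed, 0 with the epididymis covariate, 0 without Sham 1 and 4, 0 without Sham 1, 3, 4 and 5 (0 of all genes were called with the covariate or against Sham 2 alone), and 0 to 2 with 1 sample left out. With voom, NaKtide cells against PNx gave 1 of 10 in heart, 4 in kidney and 4 in VFAT, where it called 3.79%, 41.5% and 21.6% of all genes, and NaKtide against scrambled cells 4 in kidney, beside 27% of all genes. With the second library dropped, the PNx effect gave 1 call for heart minus kidney and 1 for VFAT minus kidney. The settings that use the epididymis markers or leave out named VFAT samples, and the counts of cochaperones and endoplasmic reticulum chaperones under each setting, were chosen after seeing the data, and where no construction shows it the cause was not tested.

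Signs that changed for PNx against Sham or NaKtide against scrambled cells, on the log2 scale, were these. For heart PNx against Sham, voom gave Hspa8 0.02 and Hsp90aa1 0.18, no filter gave Hsp90aa1 0.03, the length index gave Hsp90aa1 0.04 and Hspa1a 0.04, and without Sham 2 and 3 Hspa8 was 0.11, Hsp90aa1 0.28, Hspa1b 0.03 and Hspa1a 0.26. For heart NaKtide against scrambled cells, the length index gave Hspb1 -0.15 and Hspa8 -0.02. For kidney PNx against Sham, the length index gave Hspb1 -0.16, Dnajb1 -0.20, Hsp90aa1 0.04 and Hspe1 -0.21, and without PNx 3 to 5 and control cells 4 and 5 Hspb1 was -0.62, Dnajb1 -0.21, Hsp90aa1 0.16 and Hsp90ab1 -0.02. For kidney NaKtide against scrambled cells, voom gave Hspb1 0.19, and the length index Hspb1 0.50 and Hsp90aa1 -0.01. For VFAT PNx against Sham, voom gave Hsph1 -0.52, and the epididymis covariate gave Dnajb1 0.36, Hspa8 0.07, Hsp90aa1 0.05, Hsp90ab1 0.49 and Hspe1 -0.08. Without Sham 1 and 4, Dnajb1 was 0.13, Hspa8 0.11, Hsp90aa1 0.09 and Hspe1 -0.02. Without Sham 1, 3, 4 and 5, Dnajb1 was 0.28, Hspa8 0.31, Hsp90aa1 0.08, Hsp90ab1 0.28, Hspa1b 0.43 and Hspa1a 0.35. For VFAT NaKtide against scrambled cells, voom gave Hspa8 0.17, Hsp90ab1 0.11, Hspa1b 0.70 and Hspa1a 0.73, and without scrambled cells 2, 3 and 4 Hspa8 was 0.32, Hsp90ab1 0.15, Hspa1b 1.42 and Hspa1a 1.69.

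With 1 sample left out, values of the same comparisons whose sign changed ranged as follows. In heart PNx against Sham, Hsp90aa1 ran from -0.13 to 0.18 and Hspa1a from -0.35 to 0.13. In heart NaKtide against scrambled cells, Hspa1a ran from -0.28 to 0.28, Hspa1b from -0.38 to 0.30, Hspd1 from -0.04 to 0.14 and Hsph1 from -0.09 to 0.16. In kidney PNx against Sham, Hspb1 ran from -0.13 to 1.18, Hsp90aa1 from -0.19 to 0.03, Dnajb1 from -0.08 to 0.17 and Hsp90ab1 from -0.02 to 0.16. In kidney NaKtide against scrambled cells, Hspb1 ran from -0.35 to 0.19 and Hsp90ab1 from -0.01 to 0.14. In VFAT PNx against Sham, Hsph1 ran from -0.11 to 0.43 and Hsp90aa1 from -0.21 to 0.07. In VFAT NaKtide against scrambled cells, Hspb1 ran from -0.02 to 0.32, Hspe1 from -0.46 to 0.02, Hspa8 from -0.27 to 0.18, Hspa1b from -0.51 to 0.76 and Hspa1a from -0.63 to 0.73.

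With the replicate number as a block, no count of called members moved: 1 in kidney (Hsph1 -0.75, adjusted p = 0.0304) and 2 in VFAT PNx against Sham, by edgeR. Hspa1b changed sign to 0.09 for VFAT NaKtide against scrambled cells. The numbers were not shown to pair samples: of 73 same-numbered pairs 28 had a correlation of deviations over 0.1 (range -0.748 to 0.722), and in 0 of 15 comparisons did every sample correlate best with its own number. Depth limits the Hspa1 pair in heart most, with 13 to 67 Hspa1a counts per Sham or PNx sample.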
